A study of Mus musculus with 24 samples.

Results

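Dcn, Heph, Pion, Stmn4, Kctd12b, Rfx6 and 2610528J11Rik are 7 genes of the 25965 entries in an RNA-seq table of differentiating mouse embryonic stem cells (mESCs), and they were selected on the size of their falls in log2 rpm after knockdown of Smarcc1 or of Smarca4. The choice used the differences between each knockdown and the nonsilencing control (Nons), so these differences are given as a description, with no test. Male C57/Bl6 mESCs were weaned from 2i medium, which holds cells in the naive pluripotent state, into a serum medium, and all cells received a retroviral short hairpin RNA at day 2 and puromycin from day 3. The control hairpin Nons, 2 hairpins against Smarcc1 (Smarcc1.6 and Smarcc1.7) and 2 against Smarca4 (Smarca4.4 and Smarca4.6) were each followed at days 4, 5, 6 and 7, giving 4 Nons, 8 Smarcc1 and 8 Smarca4 libraries of 1 series per hairpin. Every comparison with the control thus rests on 1 Nons series, and the knockdowns were partial. The sources used here do not say that the libraries of a series came from separate cultures, so the p-values measure only the spread between these libraries. With 1 Nons library per day, that spread comes from the 2 hairpins of each knockdown, and no spread of Nons was measured. One characteristics label names Smarcc for the Smarca4 libraries, and the titles, which name Smarca4, were followed.

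BAF is a chromatin remodelling complex that uses ATP to slide or evict nucleosomes. Smarca4 (also called Brg1) is a catalytic subunit and Smarcc1 (Baf155) is a core scaffold subunit. In mESCs the complex is known for its part in pluripotency and in opening regulatory elements when cells differentiate.

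The knockdowns were made with the guides printed here, because they show that each gene was targeted at separate sites by guides with different seeds. Each guide has 22 bases and is written 5′ to 3′ as DNA, with its seed (bases 2 to 8) in capitals.
Smarcc1.6: tGTAACTGcttcttcatcctgc
Smarcc1.7: tTGCTCATcttcttccttctga
Smarca4.4: tTTATTACtgtctgactccagt
Smarca4.6: tTGCATAAtagtgttcatcagt
The 4 seeds were all distinct. The site of Smarcc1.6 lay in coding exon 13 of Smarcc1 (mm10, chr9:110177472-110177493, plus strand) and that of Smarcc1.7 in coding exon 11 (chr9:110173911-110173932). The site of Smarca4.6 lay in coding exon 22 of Smarca4 (chr9:21670504-21670525) and that of Smarca4.4 in the untranslated part of its last exon, exon 34 (chr9:21703327-21703348). Exons were counted in the longest coding GENCODE M21 transcript holding the site. No GENCODE transcript of the 7 genes held any of the 4 full sites.

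The targeted genes were lower in the libraries labelled for them. Smarcc1 was at 39.6% of the Nons mean in its own knockdown (rpm, reads scaled to a common library size), below same-day Nons in 8 of 8 libraries (log2 difference −1.33, SE 0.21, limma with Benjamini-Hochberg adjustment, adjusted p = 0.00115). Smarca4 was at 28.9% in its own knockdown, also in 8 of 8 libraries (−1.79, SE 0.29, limma adjusted p = 0.00277). The libraries held between 6829596 and 27472885 reads, and the smallest, Smarca4.4 at day 5, stood apart from the next at 15717152. Of the 25965 entries, 13296 had a mean log2 rpm of at least 0 and were tested, and the 7 genes were all among them. Dcn and Heph passed this limit only through Nons, where their mean log2 rpm was 2.13 and 1.96. In Smarca4.4, Smarca4.6, Smarcc1.6 and Smarcc1.7 the means were −0.023, −0.46, −0.35 and −1.29 for Dcn. For Heph they were −0.19, −0.23, −0.28 and 0.095. The summed level of 8 pluripotency markers fell from 2066 to 375 rpm over days 4 to 7 in Nons and lay between 374 and 2225 rpm in the knockdown libraries, and at day 7 it was higher in Smarcc1.6 (787 rpm) and Smarcc1.7 (587 rpm) than in Nons. Nanog, a factor of naive pluripotency, was between 64.5 and 127 rpm in Nons, between 131 and 284 in the Smarcc1 and between 94.996 and 236 in the Smarca4 knockdown, with every Smarcc1 library above every Nons library. Pou5f1, which made up most of the sum, had medians of 934, 971 and 698 rpm. Their part in the falls described here was not tested.

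Dcn, decorin, is a secreted small leucine-rich proteoglycan that binds collagen fibrils and TGF-beta. It lies at chr10:97479500-97518162 on the plus strand (mm10, gene positions here and below as deposited by the authors). In Nons it was at 5.28, 3.39, 5.85 and 3.52 rpm on days 4, 5, 6 and 7, from between 66 and 145 reads. In the Smarcc1 knockdown it was at a lowest 0, median 0.724 and highest 1.37 rpm, and in the Smarca4 knockdown at 0.356, 0.957 and 1.76 rpm. Both knockdowns lay wholly below Nons, and Dcn ranked first in each on the deposited log2 scale, though not with log2(rpm + 1), without day 7 or, for Smarcc1, without the Smarcc1.7 series. The mean log2 difference from Nons was −2.95 (SE 0.49) for Smarcc1 and −2.37 (SE 0.49) for Smarca4. The Smarcc1.7 library of day 7 held 0 reads of Dcn, which with a floor of 3 reads makes it at least 18.8-fold lower than same-day Nons. Without the Smarcc1.7 series the Smarcc1 difference was −2.48. In RNA from whole cultures, fewer cells of a type and less RNA per cell cannot be told apart. Dcn is a gene of fibroblasts, and the levels of that cell type's markers are given further on.

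Heph, hephaestin, is a copper-dependent ferroxidase that works with the iron exporter ferroportin, and it is X-linked (chrX:96455359-96574485, plus strand). Its first bases overlap Hsf3 on the opposite strand, and the sources used here do not say whether reads were counted by strand. In Nons it was at 1.6, 6.79, 6.94 and 3.04 rpm on days 4 to 7. The Smarcc1 libraries lay between 0.274 and 1.56 rpm with a median of 1.13, and the Smarca4 libraries between 0.512 and 1.61 rpm with a median of 0.905. All Smarcc1 libraries were below every Nons library, whereas 7 of 8 Smarca4 libraries were, the exception being Smarca4.4 at day 5, which barely exceeded Nons at day 4. The gap was widest at days 5 and 6, when Nons was highest. The mean log2 differences were −2.05 (SE 0.31) and −2.17 (SE 0.31).

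Pion is the older symbol of Gsap, gamma-secretase activating protein, which has been linked to the processing of the amyloid precursor protein. It lies at chr5:21186267-21291701 on the plus strand. In Nons it climbed from 0.473 rpm (13 reads) at day 4 to 5.01 at day 5, 20.04 at day 6 and 13.3 at day 7. The Smarcc1 knockdown had a lowest 0.0453, median 1.62 and highest 4.18 rpm, and the Smarca4 knockdown 0, 3.05 and 5.65 rpm. Every knockdown library was below Nons of its own day, while the groups overlapped across days because the gene was low everywhere at day 4. Smarca4.6 at day 4 held 0 reads, at least 2.87-fold lower than same-day Nons at a floor of 3 reads. The mean log2 differences were −2.48 (SE 0.30) for Smarcc1 and −2.12 (SE 0.30) for Smarca4, and −2.45 and −1.71 without day 4.

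Stmn4, stathmin 4, belongs to the stathmins, phosphoproteins that bind tubulin and destabilise microtubules (chr14:66344296-66361680, plus strand). It was all but unread at day 4, with 2 reads in Nons and 0 or 1 in each knockdown library, and no fold is given for that day. In Nons it then reached 3.49, 28.7 and 19.1 rpm on days 5, 6 and 7. On the same days Smarcc1.6 was at 44.9%, 34.9% and 40.2% of Nons and Smarcc1.7 at 35.3%, 28.5% and 25.4%. Smarca4.4 was at 25.1%, 19.9% and 19.4%, and Smarca4.6 at 17.0%, 8.41% and 17.7%. The steep rise with differentiation was therefore present in all 5 series, at a lower level in the knockdowns, and on these days each Smarca4 library was below both Smarcc1 libraries. Over all days the log2 differences were −1.33 (SE 0.26) for Smarcc1 and −2.08 (SE 0.26) for Smarca4, and −1.55 and −2.55 without day 4.

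Kctd12b, a KCTD family member whose relatives Kctd12 and Kctd16 are auxiliary subunits of GABA-B receptors, is the other X-linked gene of the set (chrX:153685154-153696391, minus strand). In Nons it was at 10.3, 21.1, 54.3 and 20.995 rpm on days 4 to 7, with its peak at day 6. In the Smarcc1 knockdown it was at a lowest 7.71, median 10.05 and highest 21.1 rpm, and in the Smarca4 knockdown at 2.37, 5.85 and 11.6 rpm. At day 4 the knockdown libraries were closest to Nons, at between 61.6% and 92.5% of it. By day 7 Smarca4.4 and Smarca4.6 were at 16.8% and 11.3% and Smarcc1.6 and Smarcc1.7 at 44.7% and 50.2%, so the Smarca4 libraries ended lower. The log2 differences were −0.97 (SE 0.26) for Smarcc1 and −2.0 (SE 0.26) for Smarca4.

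Rfx6 is a winged-helix transcription factor best known for its requirement in pancreatic islet development, where it acts downstream of Neurog3, and in gut endoderm (chr10:51677756-51730429, plus strand). In Nons it was at 0.946, 2.63, 13.6 and 5.97 rpm on days 4 to 7. The Smarcc1 libraries lay between 0.369 and 1.82 rpm with a median of 0.697, and the Smarca4 libraries between 0.714 and 7.66 rpm with a median of 1.15. At day 6, when all 5 series peaked, the Smarcc1 libraries were at 13.5% and 12.2% of Nons, whereas Smarca4.4 was at 56.5% and Smarca4.6 at 29.1%. On days 4, 5 and 6 both Smarcc1 libraries were below both Smarca4 libraries, and at day 7 they overlapped. The log2 differences were −2.29 (SE 0.25) for Smarcc1 and −1.28 (SE 0.25) for Smarca4.

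2610528J11Rik (chr4:118526999-118530228, plus strand) is named here by its clone symbol. In Nons it was at 10.96, 15.2, 37.4 and 24.0 rpm on days 4 to 7, from at least 300 reads per library. In the Smarcc1 knockdown it was at a lowest 1.00, median 4.54 and highest 9.78 rpm, and all 8 libraries were below every Nons library. In the Smarca4 knockdown it was at 1.79, 7.31 and 18.4 rpm and overlapped Nons. The overlap came from Smarca4.6 at days 5, 6 and 7, where it was at 87.8%, 49.1% and 46.0% of same-day Nons, while Smarca4.4 was below every Nons library. The log2 differences were −2.33 (SE 0.35) for Smarcc1 and −1.57 (SE 0.35) for Smarca4, and the latter was −1.02 without Smarca4.4 and −2.13 without Smarca4.6.

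**Figure D1:**
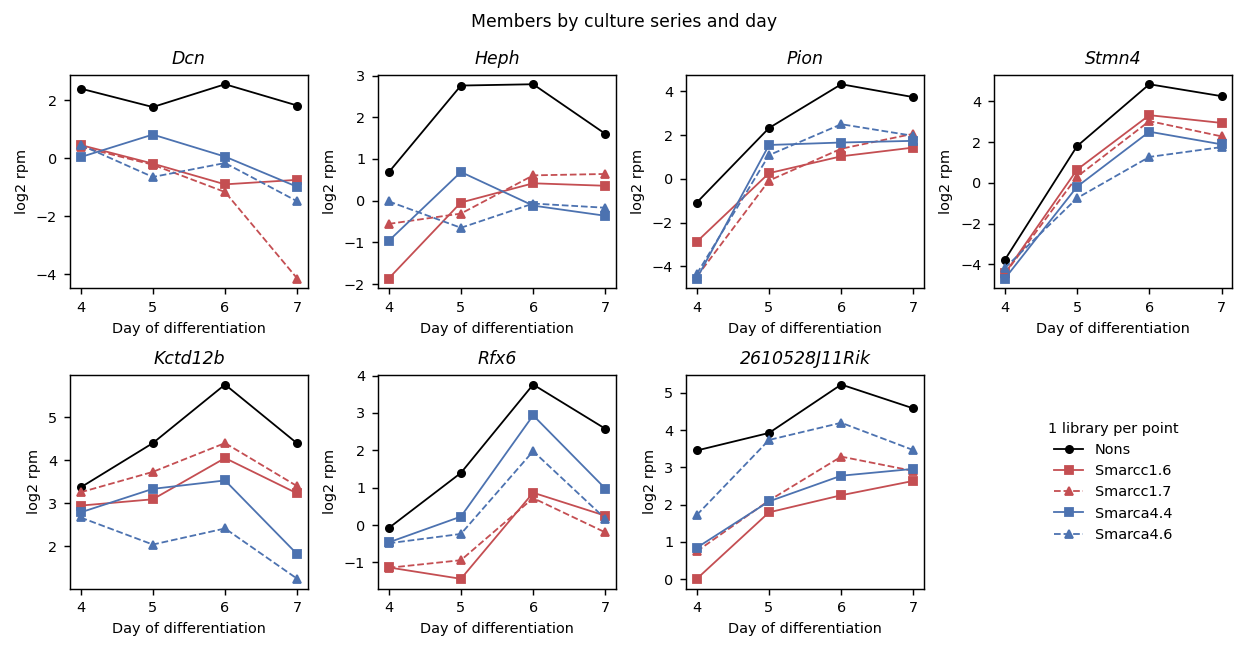
Expression of each gene as log2 rpm (vertical axis) by day of differentiation (horizontal axis), with 1 library per point and 1 line per culture series (black Nons, red Smarcc1, blue Smarca4, solid and dashed lines are the 2 hairpins). The Nons line is above all knockdown lines on all days for the 7 genes, and Stmn4 and Pion rise steeply from day 4 in every series.

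In all 7 genes each of the 8 libraries of each knockdown was below Nons of the same day, which the choice of the genes required for the knockdown that ranked them. Groups that did not overlap at all were found for 3 of 7 genes in the Smarcc1 knockdown (Dcn, Heph and 2610528J11Rik) and for 1 of 7 in the Smarca4 knockdown (Dcn). Among all genes tested, 0.218% had every Smarcc1 library below every Nons library and 0.211% had this for Smarca4. Of all genes tested, 7.54% were called higher and 3.08% lower in the Smarcc1 knockdown, and 4.75% higher and 1.96% lower in the Smarca4 knockdown (limma, adjusted p under 0.05). As the genes were ranked on these very differences, nothing is read from that background for them. The fifth gene in the Smarcc1 ranking was Heph at −2.05, and the first left out was Ctsc, a lysosomal protease, at −2.03. The fifth in the Smarca4 ranking was Kctd12b at −2.0, and the first left out was Ptchd1 at −1.91. Stmn4 and Kctd12b ranked 37th and 110th of 315 genes for Smarcc1, and 2610528J11Rik and Rfx6 ranked 15th and 37th of 200 for Smarca4.

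**Figure D2:**
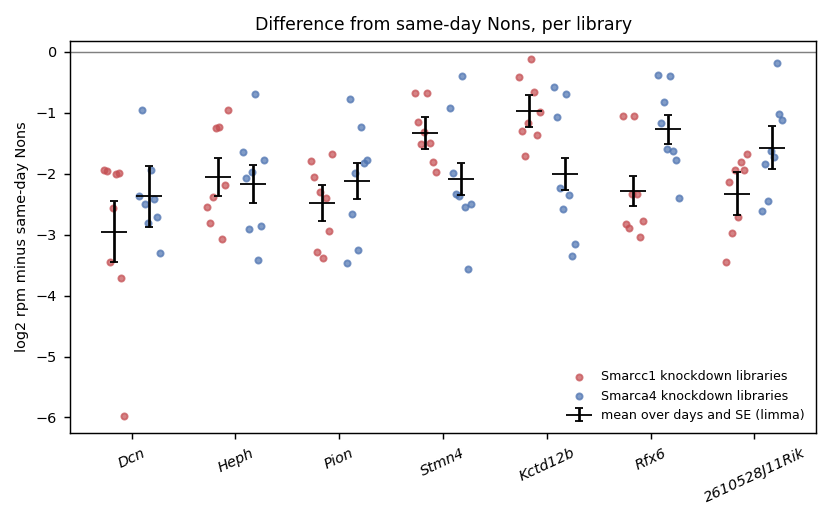
Log2 rpm of each knockdown library minus the Nons library of the same day (vertical axis), for the 7 genes (horizontal axis). Points are libraries, and black marks are the mean over days with its SE from limma. All points lie below 0, the lowest being Dcn in Smarcc1.7 at day 7 (−5.97, from 0 reads).

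Side by side, the knockdowns shared the Nons libraries and cannot be compared through them as independent evidence. The direct difference between the knockdowns (Smarcc1 minus Smarca4), which does not use Nons but is bound up with the choice, was close to 0 for Heph (log2 0.11, 95% interval −0.44 to 0.67). It was −0.36 for Pion (−0.88 to 0.17) and −0.58 for Dcn (−1.45 to 0.30). Stmn4 and Kctd12b were higher in the Smarcc1 than in the Smarca4 knockdown, by 0.75 (0.29 to 1.22) and 1.03 (0.57 to 1.5). Rfx6 and 2610528J11Rik were lower in the Smarcc1 knockdown, by −1.01 (−1.45 to −0.58) and −0.76 (−1.38 to −0.13). These values are descriptive, since a gene that ranked high for 1 knockdown entered whatever it did in the other.

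Levels can be set between genes only per length of transcript. Per kilobase of merged exons, the Nons median was highest for 2610528J11Rik (16.3 rpm per kb), followed by Stmn4 (5.90), Kctd12b (4.29), Rfx6 (1.07), Pion (0.879), Dcn (0.753) and Heph (0.641). The Nons libraries of days 4 to 7 spanned 0.0380 to 15.0 rpm per kb for Stmn4 and 2.11 to 11.1 for Kctd12b, and neighbours in this order overlapped, save that 2610528J11Rik, from 9.12 to 31.1, lay above all of Rfx6 and the genes below it. The order of the lower genes depended on the length used. Per kilobase of the longest coding transcript, 2610528J11Rik (20.4), Stmn4 (8.31) and Kctd12b (4.34) were again highest, followed by Dcn (2.50), Pion (2.45), Rfx6 (1.24) and Heph (1.04).

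The change over differentiation was not used to choose the genes, and it was tested as day 7 minus day 4, averaged over Nons and both knockdowns. Of the 7 genes 5 rose and 1 fell, where 35.7% of all genes tested rose and 28.8% fell. Stmn4 rose by 7.13 on the log2 scale (95% interval 6.51 to 7.74, limma adjusted p = 1.09e-09) and Pion by 5.51 (4.81 to 6.21, limma adjusted p = 2.16e-08). Both started from few reads, so the size of these rises depends on the lowest value in the table, and leaving out day 4 brought them to 2.29 and 1.20 between days 5 and 7.

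2610528J11Rik rose by 1.82 (0.98 to 2.65, limma adjusted p = 0.00112) and Rfx6 by 1.62 (1.04 to 2.20, limma adjusted p = 0.000155). Rfx6 was highest at day 6 in 5 of 5 series, and Stmn4 and Kctd12b in 4 of 5. For Kctd12b the average over the groups was 0.01 (−0.61 to 0.63, limma adjusted p = 0.976), with a mean log2 rpm of 3.07 at day 4 and 4.32 at day 6. The groups behind this average differed, from 10.3 rpm at day 4 to 20.995 at day 7 in Nons, from 8.64 to 9.96 in the Smarcc1 and from 6.64 to 2.95 in the Smarca4 knockdown. Without day 7 the change from day 4 to day 6 was 1.25 (limma adjusted p = 0.00538).

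Heph rose by 0.95 (0.22 to 1.69, limma adjusted p = 0.0256) and Dcn fell by 1.65 (−2.81 to −0.49, limma adjusted p = 0.0163). Both genes were tested only because their Nons level lifted their mean over the filter. Without the filter the limma adjusted p was 0.0447 for Heph and 0.0152 for Dcn. The rise of Heph was from day 4 to the later days, and between days 5 and 7 it was −0.26 (limma adjusted p = 0.491). The fall of Dcn was not called without day 4 (−1.17, limma adjusted p = 0.117), without day 7 (−0.54 from day 4 to day 6, limma adjusted p = 0.159), after thinning all libraries to the smallest (−1.38, limma adjusted p = 0.0517) or without either Smarca4 hairpin (limma adjusted p = 0.0581 without Smarca4.4 and 0.102 without Smarca4.6).

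The day course was also compared between the knockdowns, as the day 7 minus day 4 change in Smarcc1 less that in Smarca4. This difference was called for 0 of the 7 genes, against 1 gene or 0.00752% of all tested (limma, 677 genes had an unadjusted p under 0.05). It was largest for Heph (1.49, 95% interval −0.07 to 3.05, limma adjusted p = 1.00) and Kctd12b (1.41, 0.09 to 2.73, limma adjusted p = 0.912), with 2 libraries per knockdown and day.

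Between the hairpins of a pair no gene of the table was called for Smarcc1 or Smarca4 (0 and 0 of 13296, that is 0% in each, limma), while 3655 and 1158 genes had an unadjusted p under 0.05. Among the 7 genes 2610528J11Rik was higher with Smarca4.6 than with Smarca4.4 on 4 of 4 days (log2 1.11, 95% interval 0.65 to 1.58, limma adjusted p = 0.542). It was also higher with Smarcc1.7 than with Smarcc1.6 on 4 of 4 days (0.59, 0.12 to 1.06, limma adjusted p = 0.160). Kctd12b was lower with Smarca4.6 on 4 of 4 days (−0.78, −1.20 to −0.35, limma adjusted p = 0.542) and higher with Smarcc1.7 on 4 of 4 (0.37, −0.06 to 0.79, limma adjusted p = 0.227). Rfx6 was lower with Smarca4.6 on 4 of 4 days (−0.56, −1.12 to −0.01, limma adjusted p = 0.542), and Dcn was lower with Smarcc1.7 on 4 of 4 (−0.94, −2.05 to 0.17, limma adjusted p = 0.230). The other differences were −0.03 for Rfx6 with Smarcc1.7 and −0.44 for Dcn with Smarca4.6, and between −0.36 and 0.38 for Heph, Pion and Stmn4.

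**Figure D3:**
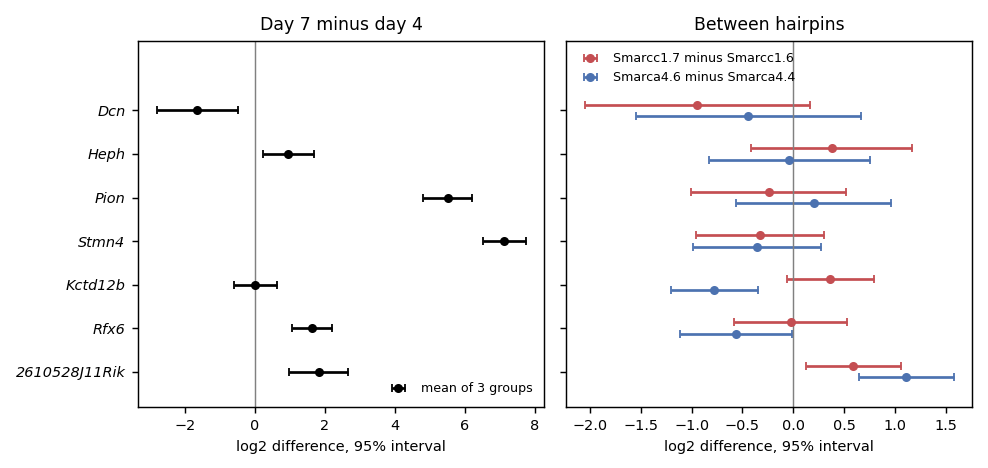
Log2 differences (horizontal axes) with 95% intervals for the 7 genes (vertical axis): left, day 7 minus day 4 averaged over the 3 groups; right, the hairpins of each knockdown (red Smarcc1.7 minus Smarcc1.6, blue Smarca4.6 minus Smarca4.4). Stmn4 (7.13) and Pion (5.51) stand far right of the others on the left, and on the right the intervals of 2610528J11Rik lie above 0 for both pairs.

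Likeness of pattern was measured as Pearson's r of log2 rpm over the 20 libraries, which share days and groups, and it is given as a description. Among the 7 genes, Pion and Stmn4 were most alike (r = 0.92), followed by Pion and 2610528J11Rik (0.83). Dcn was least like the rest, from −0.16 with Stmn4 to 0.44 with Kctd12b. Over all genes tested, the nearest to Stmn4 were Coq2, Ctsl and Gstt1 (each 0.97), and the nearest to Pion were Cpne8 (0.97), Mal2 and H2-Q2 (each 0.95). Rfx6 was nearest to Slc6a15 (0.93), Stx3 (0.89) and Stxbp6 (0.89), and 2610528J11Rik to 1110007C09Rik (0.93), Stx3 (0.91) and Ctsc (0.88). Kctd12b was nearest to Spon1 (0.90), Sfrp1 (0.82) and Mtap2 (0.81), and Heph to Nudt12 (0.85), Epdr1 (0.84) and Soat1 (0.84). Dcn had no gene above 0.78, the value of Cox4nb, and Cdh10 was at 0.75.

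The relatives of the 7 genes (their families and pathways, 96 listed genes of which 52 were tested) were then read in the same knockdown contrasts. Their lists were drawn up with earlier results of these data known, so the p-values are not those of lists set beforehand. In the Smarcc1 knockdown 6 of 52 were called higher and 3 lower with a median log2 difference of 0.06, and all genes tested had a median of 0.06, with 7.54% called higher and 3.08% lower. In the Smarca4 knockdown 6 of 52 were called higher and 2 lower with a median of 0.10, beside 0.06 over all genes, with 4.75% and 1.96%. Treating the culture series as a block left 4 and 3 of these calls. These contrasts rest on 1 Nons series for both knockdowns.

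The endocrine pancreas regulators, the pathway of Rfx6, held the largest changes. Of 18 listed genes 5 were tested, and 2 were called higher in the Smarcc1 knockdown, against 2 higher and 1 lower in the Smarca4 knockdown. Neurog3, the factor that starts the endocrine programme, lay between 0.107 and 1.93 rpm in Nons, between 5.75 and 13.2 in the Smarcc1 knockdown and between 1.15 and 4.59 in the Smarca4 knockdown. All Smarcc1 libraries were above all Nons libraries, while the Smarca4 libraries overlapped Nons and 6 of 8 were above same-day Nons. Neurog3 rose by 3.74 (SE 0.25, limma adjusted p = 4.25e-06) in the Smarcc1 and by 1.88 (SE 0.25, limma adjusted p = 0.000800) in the Smarca4 knockdown, the opposite direction to Rfx6. Its Nons libraries held between 2 and 53 reads, so the size of these rises depends in part on a value below the floor of 3 reads.

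Insm1, a zinc finger factor of endocrine and neuronal precursors, rose in 8 of 8 libraries of each knockdown against same-day Nons, by 1.84 (SE 0.28, limma adjusted p = 0.00102) and 2.03 (SE 0.28, limma adjusted p = 0.00106). Neurod1, a bHLH factor of islet and neuronal differentiation, fell in the Smarca4 knockdown by 1.15 (SE 0.27, limma adjusted p = 0.0245), below same-day Nons in 8 of 8 libraries. With the block the change of Neurod1 was not called (limma adjusted p = 0.181), whereas those of Neurog3 and Insm1 were. Among the RFX factors 1 of 7 tested was called in each knockdown: Rfx2, a factor of ciliary genes, rose by 1.29 (SE 0.30, limma adjusted p = 0.0150) and 1.21 (SE 0.30, limma adjusted p = 0.0318), and neither call held with the block (limma adjusted p = 0.0908 and 0.171).

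Among the stathmins and neuronal cytoskeleton genes, relatives of Stmn4, 2 of 10 were called higher and 1 lower in the Smarcc1 knockdown, and 1 higher and 1 lower in the Smarca4 knockdown. Mapt, which encodes the microtubule protein tau, rose in both, by 1.05 (SE 0.16, limma adjusted p = 0.000965) and 1.15 (SE 0.16, limma adjusted p = 0.00104), and was above same-day Nons in 8 of 8 libraries each. Stmn2, a stathmin of growing axons, fell by 0.77 in the Smarcc1 knockdown (SE 0.20, limma adjusted p = 0.0268) and was at −0.55 in the Smarca4 knockdown (limma adjusted p = 0.14). Mtap2, the older symbol of Map2, which encodes a dendritic microtubule protein, fell by 1.04 in the Smarca4 knockdown (SE 0.23, limma adjusted p = 0.0187) and was at −0.76 in the Smarcc1 knockdown (limma adjusted p = 0.0568). With the block, Stmn2 and Mtap2 were not called (limma adjusted p = 0.129 and 0.105).

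For the iron and copper handling genes, relatives of Heph, 1 of 14 was called in each knockdown, and it was the same gene in opposite directions. Slc40a1, ferroportin, the iron exporter that hephaestin serves, fell by 0.56 in the Smarcc1 knockdown (SE 0.15, limma adjusted p = 0.0309) and rose by 0.58 in the Smarca4 knockdown (SE 0.15, limma adjusted p = 0.0368). Its 8 Smarcc1 libraries were all below and its 8 Smarca4 libraries all above same-day Nons, although neither call held with the block (limma adjusted p = 0.134 and 0.169).

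For gamma-secretase and amyloid precursor processing, the field of Pion, 1 of 13 genes was called lower in the Smarcc1 knockdown and 1 higher in the Smarca4 knockdown. App, the amyloid precursor protein, fell by 1.17 in the Smarcc1 knockdown (SE 0.23, limma adjusted p = 0.00503, and 0.0211 with the block), below same-day Nons in 8 of 8 libraries, and was at −0.22 in the Smarca4 knockdown (limma adjusted p = 0.662). Adam17, a sheddase, rose by 0.59 in the Smarca4 knockdown (SE 0.16, limma adjusted p = 0.0498, and 0.220 with the block).

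Of 16 small leucine-rich proteoglycans only 2 were tested, the rest being too low, and Chadl, a relative of Dcn, rose by 0.55 in the Smarcc1 knockdown (SE 0.16, limma adjusted p = 0.0417, and 0.189 with the block). Of 9 GABA-B receptor, KCTD and channel subunits, relatives of Kctd12b, 1 was tested: Gabbr1, a subunit of the GABA-B receptor, was at 0.41 and 0.24 (limma adjusted p = 0.224 and 0.532).

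**Figure D4:**
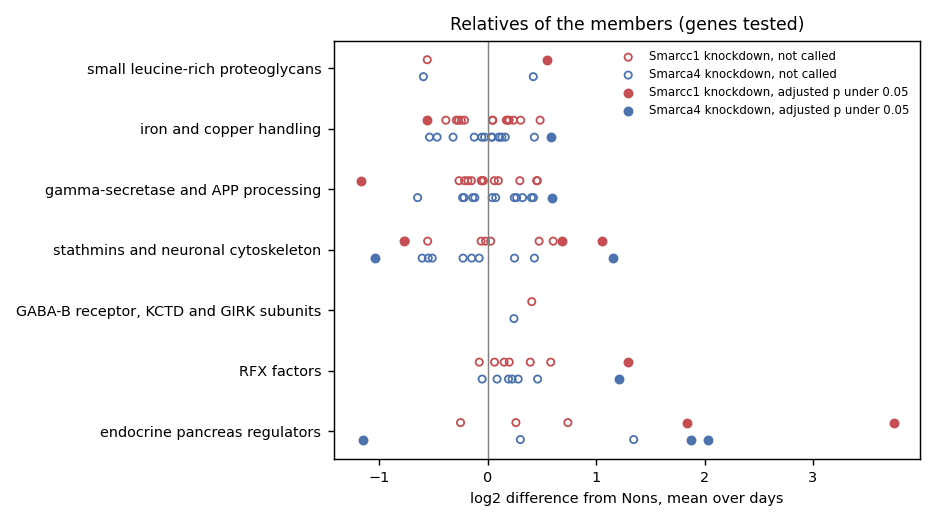
Log2 difference from Nons, averaged over days (horizontal axis), of the 52 tested relatives by list (vertical axis, red Smarcc1, blue Smarca4, filled points have an adjusted p under 0.05). Neurog3 stands furthest right at 3.74 in the Smarcc1 knockdown, and most points lie near 0.

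Markers of other cell types that the cultures could hold were read beside these values. Of 12 fibroblast and mesenchyme markers, 6 were tested, and Prrx1 and Fap had at most 3 reads in every library of all 3 groups, as had Lum in Nons and Smarcc1. Their summed level was between 11.03 and 62.7 rpm in Nons, between 8.82 and 139 in the Smarcc1 knockdown and between 9.26 and 54.6 in the Smarca4 knockdown. At day 7 it was 62.7 rpm in Nons, and it was higher in Smarcc1.6 and Smarcc1.7 (139 and 115 rpm), where Dcn was lower, and lower in Smarca4.4 and Smarca4.6 (54.6 and 37.5 rpm). The fibrillar collagen gene Col1a1 reached 20.2 rpm in Nons, 60.4 in the Smarcc1 and 24.1 in the Smarca4 knockdown, and Col1a2 reached 24.3, 51.7 and 14.04 rpm.

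Of 7 neural markers, the sum was between 66.3 and 131 rpm in Nons, between 67.0 and 131 in the Smarcc1 knockdown and between 51.8 and 178 in the Smarca4 knockdown. Its most abundant members differed. Nes had medians of 62.6 rpm in Nons, 32.9 in the Smarcc1 and 30.1 in the Smarca4 knockdown, and Tubb3 had 31.0, 40.3 and 32.9. The part of neural cells in the lower level of Stmn4 was not tested. For 10 primitive and visceral endoderm markers the sums were between 7.46 and 42.7 rpm in Nons, between 10.2 and 46.6 in Smarcc1 and between 5.38 and 36.3 in Smarca4, and for 6 trophoblast markers up to 165, 94.6 and 162 rpm. Of the 6 mesoderm markers 0 passed the filter to be tested, and their summed level was at most 6.57 rpm in any library. Every knockdown library had a higher mesoderm sum than same-day Nons. At day 6 it was 0.891 rpm in Nons, 2.27 and 2.79 in Smarcc1.6 and Smarcc1.7, and 1.27 and 1.59 in Smarca4.4 and Smarca4.6. The sums of the endoderm and trophoblast lists overlapped between groups across days. Against same-day Nons, the endoderm sum was higher in every Smarcc1 library, and the trophoblast sum was lower in all but Smarcc1.7 at day 5. At day 7 the trophoblast sum was 165 rpm in Nons and 94.6 and 93.5 rpm in Smarcc1.6 and Smarcc1.7. In the Smarca4 libraries both sums lay on either side of same-day Nons. The part of these cell types in the falls of the 7 genes was not tested.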

How the data were processed

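RNA of differentiating mESCs was sequenced in 20 libraries. Per the study's methods, libraries (TruSeq) were read single-end on a NextSeq500, trimmed with trim_galore and aligned to mm10 with tophat or hisat2; annotation release and strand use are not given in the sources used here. The deposited values are log2 rpm per gene from SeqMonk, made by the authors, with 0 reads entered as 0.9 read. Reads were recovered from these values, and 100% of those below 1000 reads came out whole within 0.05. The totals lay between 6829596 and 27472885 reads, and intervals and floors from reads cover counting error only. The 4 Nons replicate 2 samples were not analysed here.

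The log2 values were fitted with limma 3.58.1 (trend) in R 4.3.3, with a mean for each knockdown and day (8 residual degrees of freedom; 6 with hairpin terms) over the 13296 entries whose log2 rpm averaged 0 or more, two-sided, with Benjamini-Hochberg adjustment and a threshold of 0.05. Tables were made in Python 3.11.15 and the fit was tested on simulated data. Named genes were the 7 genes, both targets, the gene ranked sixth in each knockdown, the 3 genes nearest to each member by r (1 of them is not reported here), up to 3 per family or pathway list with the largest called difference (otherwise the most abundant), and up to 2 most abundant per marker list. These genes and lists were chosen with earlier results of these data known. Positions of the 7 genes are those deposited with the values. Hairpin sites, overlapping genes and exon lengths are from GENCODE M21, and guides from the study's oligonucleotide table.

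Alternatives were the filter, the pseudocount, the centring, limma-voom on recovered reads, thinning, the culture series as a block, and leaving out each hairpin, each day or the smallest library.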

Additional observations from a re-analysis of the deposited data

Results flagged for a closer look

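In Smarcc1.7 at day 7, Dcn was far below the other 7 Smarcc1 libraries, at −5.97 against same-day Nons on the log2 scale, from 0 reads; the gap to the nearest library took 0.559 of the group's range. That value stems from the 0.9 read entered for 0 reads. With the floor of 3 reads the difference is −4.23 and the gap 0.224 of the range, which is under the limit used, so this library stands apart only through the entered value. Chadl in Smarca4.4 at day 6 stood apart at 1.02, and Adam17 in Smarcc1.7 at day 6 at 0.95. In all, 57 groups were looked at in this way, and chance alone gives about 1 in 20. The knockdowns differed from each other (Smarcc1 minus Smarca4, limma with Benjamini-Hochberg adjustment) for Neurog3 by 1.87 (adjusted p = 0.000417), for Slc40a1 by −1.14 (adjusted p = 0.000404), for App by −0.95 (adjusted p = 0.0128) and for Neurod1 by 0.90 (adjusted p = 0.0411). These genes were named for called differences in the knockdown contrasts, so the p-values are not those of genes set beforehand. They come from the main fit, and the knockdown calls of Slc40a1 and Neurod1 did not hold with the block.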

How the results depend on the processing

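The falls of the 7 genes kept their direction under every alternative in which they were fitted. This adds no support, because every knockdown library already lay below same-day Nons. The choice of the genes required that for the knockdown that ranked them. With log2(rpm + 1) the Smarcc1 falls of Dcn, Pion, Rfx6 and Heph shrank by over 1.5 times in fold, to −1.68, −1.59, −1.49 and −1.33, and the Smarca4 falls of Dcn, Heph and Pion to −1.51, −1.42 and −1.24. Dcn then no longer had the largest fall of the 7, which was that of 2610528J11Rik (−2.02) for Smarcc1 and of Kctd12b (−1.81) for Smarca4. Among the 7 genes, Dcn was also not first without Smarcc1.7 (−2.48, against −2.63 for 2610528J11Rik), without Smarca4.6, without day 7 in either knockdown or without day 4 in the Smarca4 knockdown. The number of genes called over the table was less stable. With each hairpin series taken as a replicate block (within-series correlation 0.22) it fell from 1412 to 605 for Smarcc1 and from 892 to 258 for Smarca4. Leaving out a hairpin, a day or the smallest library gave 379 to 1894 and 132 to 1144. For Smarcc1 the count moved by over 1.5 times without Smarcc1.7 (843), day 6 (793) or day 7 (379), and for Smarca4 without Smarca4.4 (420), Smarca4.6 (277), day 4 (497), day 6 (431) or day 7 (132). The day course called differently in the knockdowns for 1 gene, and for 2 without a filter, 5 with log2(rpm + 1), 0 after centring on the median gene, 0 with limma-voom and 19 with the block; left-out settings gave 0 to 1. Of the relatives, 9 were called for Smarcc1, and 14 without a filter, 4 with the block and 3 to 10 with a setting left out (4 without Smarcc1.7, 3 without day 7). For Smarca4 there were 8, and 4 after thinning, 3 with the block and 2 to 9 with a setting left out (5 without Smarcc1.6, Smarcc1.7, Smarca4.4 or day 4, 4 without Smarca4.6 or day 6, and 2 without day 7). The replicate numbers name hairpins, and the main fit did not pair libraries by them. Deviations of hairpins correlated between days at 0.02 to 0.82 for Smarcc1 and −0.21 to 0.37 for Smarca4. Libraries of a Smarcc1 series can thus deviate together on some days, which the main p-values do not allow for. The block allows for it only in part, since it applies 1 within-series correlation (0.22) to all series. The block changed no day 7 minus day 4 call among the 7 genes. The rise of Heph turned to −0.26 without day 4 and reached 1.41 at most, and was not called after centring (0.78), thinning (0.83) or without Smarcc1.6 (0.78) or Smarca4.4 (0.83); that of 2610528J11Rik was not called without day 4 (0.59). The cause was not tested. Depth limits Dcn, Heph and Rfx6 most, with under 20 reads in 12, 11 and 9 of 16 knockdown libraries, followed by Stmn4 (6) and Pion (4).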
